A study of Mus musculus with 14 samples.

Results

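Neutrophil granule genes were followed in 14 single Tomato-positive cells picked from adult mouse bone. The set holds 10 genes, chosen by symbol from the 9558 gene rows of the table. Mpo and Elane stand for the early (azurophil) granules. Camp, Ngp, Ltf and Lcn2 stand for the specific granules, and Retnlg, Mmp8, Chil3 and Ly6g for other genes of later neutrophil stages. All 10 had 1 row each, were protein-coding and matched GENCODE M21 on GRCm38 by Ensembl ID.

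The cells came from Prrx1-CreERT;Tomato mice of strain C57BL/6, given tamoxifen at 2 mg per 30 g of body weight daily for 3 days. In this line the Prrx1 promoter drives a tamoxifen-dependent Cre that turns on the red Tomato reporter, so the sort selected red cells by the reporter and not by a neutrophil antigen. The marrow of tibiae, radii and ulnae had been flushed out before the bones were digested, and single red cells were picked under a fluorescence microscope. The labels give a single group without naming animals. The cells are therefore treated as 1 sample, which allows neither a test nor a p-value. Medians, ranges and SDs describe these 14 cells.

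Neutrophils fill their granules in waves while they mature in the bone marrow. Azurophil granules, which hold myeloperoxidase and serine proteases such as neutrophil elastase, are made at the promyelocyte stage. Specific granules, with lactoferrin, lipocalin 2 and cathelicidin, follow at the myelocyte and metamyelocyte stages, and gelatinase granules and surface molecules of the mature cell come last. A granule protein is stored once its mRNA has gone, so the mRNAs of the early and later classes are known to mark different stages.

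Levels are log2(FPKM + 1) after quantile normalization, that is, fragments per kilobase of transcript scaled to sequencing depth, forced to 1 common distribution in every cell. Each cell therefore had 5066 rows at 1 or more, the level at which a gene was counted as detected, and a level says how high a gene stands among the genes of the same cell. Sequencing depth is unknown, as no counts are in the table. Between 7304 and 8027 rows were above 0 per cell, and no pair of cells had identical columns (0 pairs). By which rows were at 0, the cells fell into a set of 9 (cells 1, 2, 5, 6, 7, 8, 9, 10 and 14) and a set of 5 (cells 3, 4, 11, 12 and 13). The median correlation of presence over 5073 rows was 0.255 within the sets and 0.0798 between them. The sets were formed from these same correlations, so the higher value within them is built in. The labels name no such sets, which come from the zeros alone.

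The later granule genes were detected in 11 to 14 of the 14 cells each, and the early ones were high in 1 cell. All 8 later genes were detected together in 9 cells, and cell 4 had 4 of them. The mean over the 8 later genes had a median of 6.21 over the cells, from 2.77 in cell 4 to 11.46 in cell 14. The mean of Mpo and Elane had a median of 0.56, was 9.69 in cell 6 and did not pass 1.19 in any other cell. Within each cell the later mean was above the early mean, in 14 of 14 cells. The difference had a median of 5.71 log2 units (SD 2.89), and was smallest in cell 6 at 0.72 and largest in cells 11 and 14, at 11.0015 and 10.9987. In 9 of 14 cells even the lowest of the 8 later genes lay above both early genes. Of the 10 genes, 8 were detected in at least 7 cells, where 51.7% of all rows were, and 4 were detected in all 14, where 15.8% of all rows were. All 8 in the first count were later genes.

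**Figure D1:**
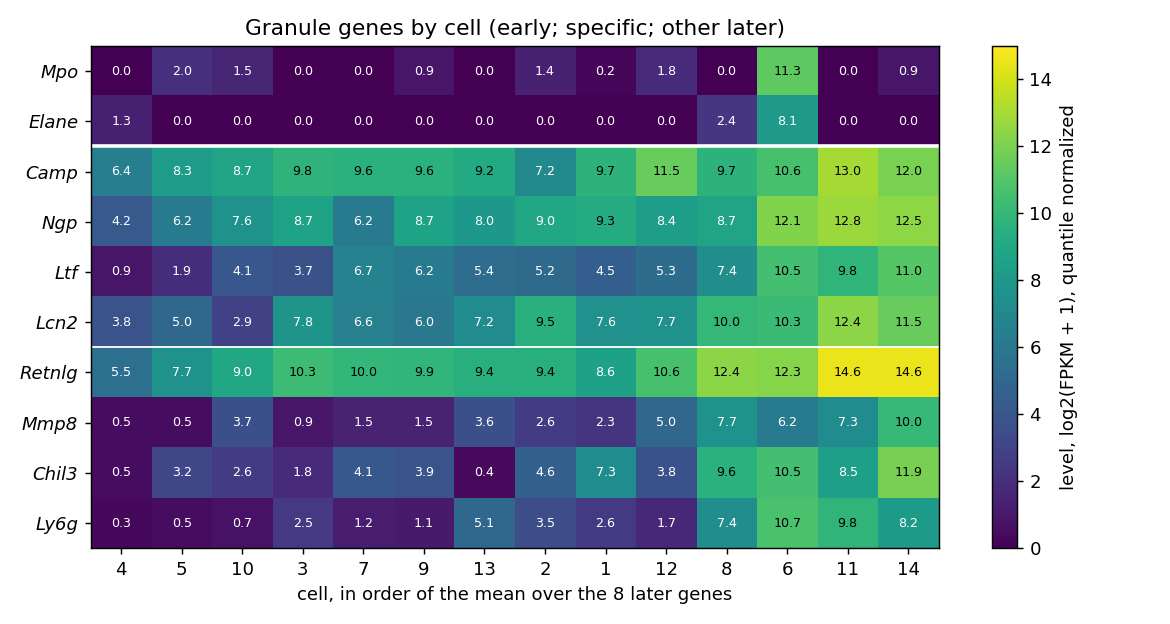
Level of each granule gene (rows) in each cell (columns, in order of the later mean), as log2(FPKM + 1) after quantile normalization, with the value written in each field. Mpo and Elane are high in cell 6 alone, at 11.25 and 8.13, while Camp, Ngp and Retnlg are above 4 in every column.

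The comparison was repeated within the 2 sets of cells. The median difference between the later and the early mean was 5.69 in the set of 9 and 5.87 in the set of 5. The later mean was the higher one in 9 of 9 and 5 of 5 cells, which follows from the 14 of 14 above and adds nothing to it. Mpo was detected in 4 cells of the larger set and 1 of the smaller, and Elane in 2 and 1. Outside cell 6, a cell of the larger set, neither early gene passed 2.37.

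**Figure D2:**
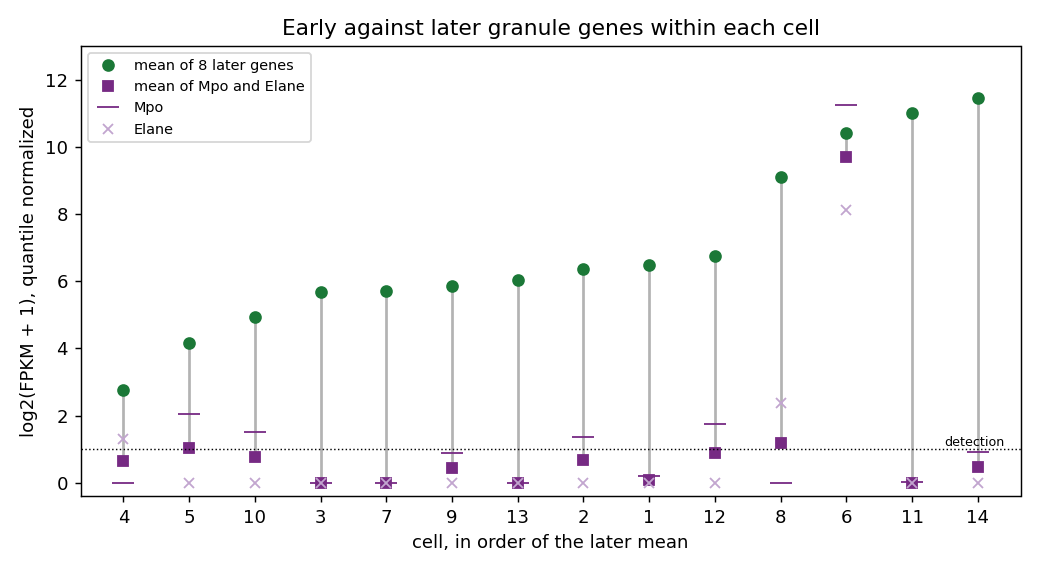
Mean of the 8 later genes (circles) and of Mpo and Elane (squares) in each cell, with the single values of Mpo (dashes) and Elane (crosses), on the log2(FPKM + 1) scale. The gap between circle and square is 0.72 in cell 6 and at least 2.12 in the other cells, and the Mpo dash lies above the circle in cell 6 only.

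Mpo encodes myeloperoxidase, the haem enzyme that makes hypochlorous acid in the phagosome. The gene (ENSMUSG00000009350) lies on chromosome 11 from 87793581 to 87804413, plus strand, in GRCm38. Its level was 11.25 in cell 6, 37th among all rows of that cell. Cells 5, 12, 10 and 2 followed with 2.05, 1.76, 1.53 and 1.35, which makes 5 cells with detected Mpo (35.7%, exact Clopper-Pearson 95% interval 12.8% to 64.9%). Mpo was above 0 in 10 cells and at an FPKM of 5 or more in 1. The median over the cells was 0.54, and Mpo was at 0 in 4 cells, namely 3, 4, 7 and 8. Cell 6 thus stood 9.21 log2 units above the next cell. A gene on the opposite strand overlaps Mpo in the annotation. No source used here says whether counting used strand, so reads of this pair cannot be told apart.

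Elane encodes neutrophil elastase, a serine protease of the azurophil granule. It lies on chromosome 10 from 79886247 to 79888215, plus strand. Cells 6, 8 and 4 held 8.13, 2.37 and 1.32, and the gene was listed at 0 in the other 11 cells. Cell 6 was the only cell with both genes detected, and the cells with either gene numbered 7 (50%, exact 95% interval 23.0% to 77.0%). Both intervals take the cells as independent, which the labels do not show, and cover counting error only. The number with either gene was 12 when any value above 0 counted and 1 at an FPKM of 5. In 2 cells, 3 and 7, both were at 0. Over all rows, 25.2% were detected in 3 to 5 cells as Mpo and Elane were, and 1.23% were so detected and also reached 8 or more in some cell.

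Other genes of the early class did not share the cell of Mpo and Elane. All 3 further azurophil or promyelocyte genes examined had a row, and 0 of 3 were detected in at least 7 cells. Over all rows the share was 51.7%. Prtn3, which encodes proteinase 3, reached 3.75 in cell 9 and 1.95 in cell 7, with 0 in the other 12 cells. Ctsg, which encodes cathepsin G, was at 5.60 in cell 4 and at 0 in 13 cells. Ms4a3, a membrane protein gene of granulocyte and monocyte progenitors, was at 4.27 in cell 4 and at 0 in the same 13 cells. Cell 6 was thus at 0 for all 3 while it held the highest Mpo and Elane, and cell 4, with Ctsg and Ms4a3, had the lowest mean of the later genes.

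Among the specific granule genes, Camp had the most even level. Camp encodes the cathelicidin antimicrobial peptide precursor and lies on chromosome 9 from 109847379 to 109849617, minus strand. Its lowest value was 6.44 in cell 4, its median 9.64 and its highest 12.96 in cell 11, with an SD of 1.76. In every cell it lay above at least 89.0% of all rows, and its median percentile within a cell was 98.3. The values of cells 6 and 8, at 10.64 and 9.70, were inside the range of the other cells, since cell 12 had 11.52.

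Ngp, the neutrophilic granule protein gene and a relative of cathelicidins, followed the same cells with a wider spread. It lies on chromosome 9 from 110419747 to 110423012, plus strand. Its values went from 4.19 in cell 4 over a median of 8.70 to 12.77 in cell 11, with an SD of 2.45. Cells 11, 14 and 6, at 12.77, 12.48 and 12.14, stood above all others, the next being cell 1 at 9.30.

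Ltf encodes lactoferrin, the iron-binding protein of specific granules, on chromosome 9 from 111019271 to 111042767, plus strand. Cells 14, 6, 11 and 8 held 11.02, 10.50, 9.79 and 7.39. The other 10 cells lay between 0.92 in cell 4 and 6.67 in cell 7, below these 4 without overlap, and 13 of 14 cells had detected Ltf. These 4 cells have the highest means of the later genes, Ltf among them, so such a gap is partly built in. The same holds for the gaps of Mmp8 and Ly6g. The median over the cells was 5.34.

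Lcn2 encodes lipocalin 2, which binds bacterial siderophores, on chromosome 2 from 32384633 to 32388252, minus strand. It was detected in all 14 cells, from 2.89 in cell 10 over a median of 7.63 to 12.39 in cell 11. Cells 14, 6 and 8 followed at 11.52, 10.25 and 9.97, and cell 2 was close to them at 9.51.

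Camp, Ngp and Ltf lie within 1.20 Mb of chromosome 9. The 14 other rows of the table that lie inside this interval, 6 of them detected in at least 7 cells, had a median Spearman correlation of 0.03 with the later mean over the 14 cells, with values from -0.21 to 0.47. The 3 granule genes are themselves part of that mean.

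Of the other later genes, Retnlg had the highest level of all members. It encodes resistin-like gamma, a secreted protein abundant in neutrophils, on chromosome 16 from 48872621 to 48874496, plus strand. Its lowest value was 5.47 in cell 4 and its median 9.92. In cells 11 and 14 it was at 14.58, the largest value of the whole table, and so ranked number 1 in both cells. Cells 8 and 6 had 12.39 and 12.28, and no other cell passed 10.62.

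Mmp8 encodes neutrophil collagenase and lies on chromosome 9 from 7558456 to 7568485, plus strand. Its levels in cells 14, 8, 11 and 6 were 10.04, 7.67, 7.30 and 6.25. The other 10 cells were at 0.49 to 4.98, with no overlap with these 4, and the median over all cells was 3.11. Detection was in 11 cells.

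Chil3 encodes a chitinase-like lectin (Ym1) of myeloid cells and lies on chromosome 3 from 106147554 to 106167564, minus strand. Its 4 highest levels, 11.92, 10.54, 9.56 and 8.48, belonged to cells 14, 6, 8 and 11, and its median was 3.99. Cell 1 came near at 7.28, and the lowest value was 0.41 in cell 13. Its SD of 3.72 was the largest of the 10 genes, beside a median SD of 2.03 over all rows detected in at least 7 cells. The near-identical copy Chil4 had 8.02 in cell 14 and 7.31 in cell 6. Reads shared by the 2 genes may be split by the authors' counting, so the Chil3 level is uncertain.

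Ly6g encodes the surface antigen by which mouse neutrophils are sorted. It is a membrane protein and not a granule content, and lies on chromosome 15 from 75155240 to 75159126, plus strand. Cell 6 led with 10.67, before cells 11, 14 and 8 with 9.80, 8.17 and 7.37. The other 10 cells were at 0.34 to 5.08, with no overlap, and the median over all cells was 2.52. Cell 6, the cell of Mpo and Elane, therefore also held the highest Ly6g.

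The extremes of the genes fell on few cells. Cell 4 had the lowest level of 6 of the 8 later genes, all but Lcn2 and Chil3, and it was the lowest cell without a tie in 9.94% of all rows. Cell 6 had the highest level of 3 of the 10 genes (Mpo, Elane and Ly6g), beside 10.1% of all rows. Cell 11 had that of Camp, Ngp and Lcn2 (7.49% of all rows) and cell 14 that of Ltf, Mmp8 and Chil3 (8.09%), and both shared the top value of Retnlg.

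**Figure D3:**
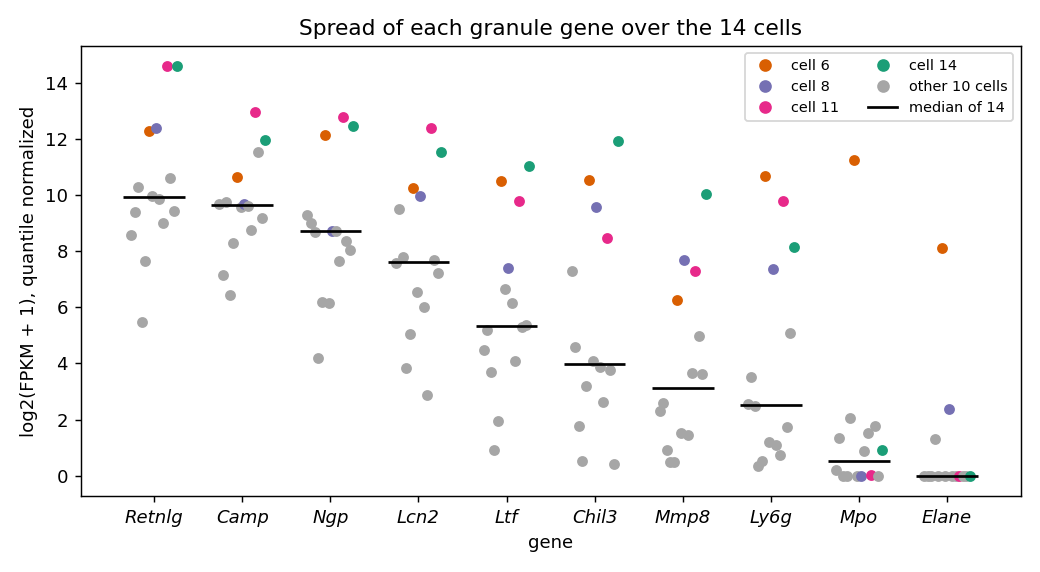
Values of all 14 cells for each gene, in order of the median (black line), on the log2(FPKM + 1) scale, with cells 6, 8, 11 and 14 in colour. For Ltf, Lcn2, Retnlg, Mmp8, Chil3 and Ly6g the coloured cells lie above all 10 grey ones. For Camp and Ngp grey and coloured cells mix, and for Mpo and Elane cell 6 stands alone. The coloured cells have the highest means of these same later genes, so the separation is partly built in.

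The order of the medians on the deposited per-length scale was Retnlg, Camp, Ngp, Lcn2, Ltf, Chil3, Mmp8, Ly6g, Mpo and Elane. Neighbours in this order were often not apart beyond their spread. Retnlg exceeded Camp in 10 of 14 cells by a median of 0.33 (SD of the difference 1.32), and Mmp8 exceeded Ly6g in 7 of 14 cells by 0.07 (SD 2.03). The widest steps between later neighbours were Lcn2 over Ltf, with a median difference of 2.48 (SD 1.75, 10 of 14 cells), and Chil3 over Mmp8, with 1.88 (SD 2.19, 11 of 14 cells). The library kit captures 3' ends, so reads need not grow with transcript length. With the division by length undone, Camp (9.24) came before Retnlg (9.16), and the other 8 places were unchanged. Camp, Retnlg and, in cell 2, Lcn2 were the highest members on the deposited scale: Retnlg in 9 cells, Camp in 4.

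The 4 specific granule genes had a higher mean than Retnlg, Mmp8, Chil3 and Ly6g in 13 of 14 cells, with a median difference of 2.48 log2 units and values from -0.30 in cell 8 to 3.61. This comparison rests on levels of different genes, among them the low Mmp8, Chil3 and Ly6g.

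Over the 14 cells the levels of the later genes were correlated with one another. These correlations are descriptions, and the cells share the quantile normalization. Spearman's rho over the 28 pairs of later genes had a median of 0.75 (0.59 for Camp with Chil3 to 0.92 for Lcn2 with Ly6g). The median over all 12194391 pairs of rows detected in at least 7 cells was 0.01, and 2.83% of those pairs reached 0.59 or more. Over the 16 pairs of an early with a later gene the median was 0.15 (-0.04 to 0.26), and that of Pearson's r on the log2 values was 0.30. Elane was at 0 in 11 cells and Mpo was under the detection level in 9, so the rank correlations with the early genes rest mostly on ties and low values. Mpo and Elane had a rho of -0.08 with each other, whereas Pearson's r on the log2 values was 0.89 with cell 6 and -0.36 without it. Without cells 6, 8, 11 and 14 the median over the later pairs was 0.41 (0.08 to 0.81) in the other 10 cells. These 4 cells have the highest later means. Within the sets of 9 and 5 cells it was 0.77 and 0.75.

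**Figure D4:**
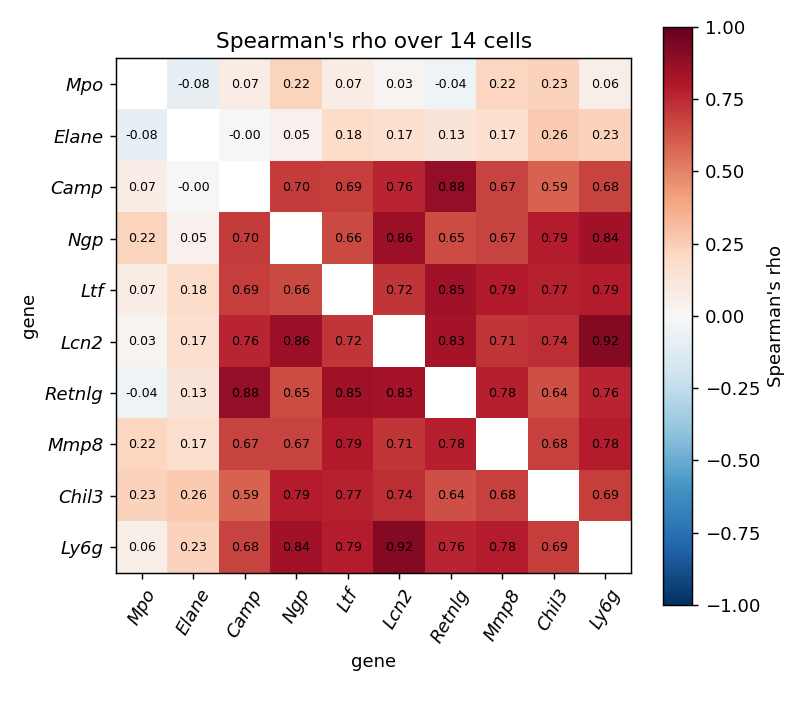
Spearman's rho between each pair of granule genes over the 14 cells (colour scale from -1 to 1, value in each field). The block of the 8 later genes is between 0.59 and 0.92, and the rows of Mpo and Elane do not pass 0.26.

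The rows most like the later mean were sought among 6102 named genes detected in at least 5 cells. The 5 closest by Spearman's rho over the 14 cells were Cd53, a leukocyte tetraspanin (0.93), the chemokine gene Ccl3 (0.93), the decoy interleukin 1 receptor Il1r2 (0.92), the cytokine gene Il1b (0.91) and Cd24a, a surface glycoprotein gene (0.91). In the 10 cells without cells 6, 8, 11 and 14 their rho was 0.76 to 0.89. The 5 rows were chosen over all 14 cells, these 10 included, so a high rho there is partly built in. Cells 6, 11 and 14 had Il1r2 at 9.26, 10.16 and 9.42, where the median cell had 2.78. Cd53 was at 9.89 in cell 14 and 8.81 in cell 11 but at 2.27 in cell 6. The 5 rows closest to the early mean were Ubxn2a (0.86), Wdr20 (0.78), Dda1 (0.77), Bcap29 (0.77) and Hadhb (0.77). That order rests on early means below 1.19 in all cells but cell 6, mostly under the detection level.

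Promoter sequences are shown because the later genes varied together. The windows are the 250 bases before the RefSeq start (GRCm38.p6), and all 10 genes had at least 1 window, Ly6g having 2. C/EBP factors and PU.1 are known regulators of granulocyte genes. A C/EBP-type motif, TTGCNNAA or TTNNGCAA on the other strand, was in a window of 6 of 8 later genes (Lcn2, Ngp, Ltf, Retnlg, Mmp8 and Ly6g) and in that of 0 of 2 early genes. Over all 32851 windows, 9.56% held it. The PU.1-type motif AGGAAGT, or ACTTCCT on the other strand, was in both early genes and in Mmp8, Chil3 and Ly6g, beside 7.69% of all windows. Camp held neither, and no match overlapped another. Of the 250 bases, 203 for Mpo, 197 for Lcn2, 161 for Camp and 65 for Elane lay inside an annotated exon of the gene. The windows of the other genes had 0 to 89 such bases. A window without a match therefore does not show that the bases before the annotated gene lack the motif. The match of Lcn2 and the second of the 2 matches of Ngp lay inside an annotated GENCODE exon. A match is a description of letters and not a binding site. The stretches below are written 5′ to 3′ on the strand of the gene, with the match in capitals.
Ngp, chr9:110419624-110419723, plus strand, match from 138 bases before the start: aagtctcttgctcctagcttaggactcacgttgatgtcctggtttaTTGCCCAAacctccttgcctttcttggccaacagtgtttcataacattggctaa
Ltf, chr9:111019171-111019270, plus strand, match from 75 bases before the start: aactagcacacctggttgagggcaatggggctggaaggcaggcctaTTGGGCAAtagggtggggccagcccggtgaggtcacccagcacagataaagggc
Mmp8, chr9:7558364-7558428, plus strand, match from 19 bases before the start: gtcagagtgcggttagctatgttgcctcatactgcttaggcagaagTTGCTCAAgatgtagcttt
Lcn2, chr2:32387937-32387966, minus strand, match from 216 bases before the start: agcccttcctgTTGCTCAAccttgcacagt
Elane, chr10:79886182-79886246, plus strand, match from 84 bases before the start: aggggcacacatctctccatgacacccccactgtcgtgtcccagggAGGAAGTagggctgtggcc
Mpo, chr11:87793534-87793580, plus strand, match from 223 bases before the start: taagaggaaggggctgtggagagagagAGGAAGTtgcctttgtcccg
The first 4 stretches carry the C/EBP-type letters and the last 2, from the early genes, the PU.1-type letters.

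The genes of the factors themselves were unevenly present. Of the 6 granulocyte transcription factor genes with a row, 4 were detected in at least 7 cells, as were 51.7% of all rows. Cebpb, with a median of 4.99, was found in 12 cells, and Cebpd, with 5.62, in 13. Their Spearman correlations with the later mean over the 14 cells were 0.27 and -0.04. Runx1 and Cbfb, detected in 9 and 7 cells, had correlations of -0.03 and -0.22 with it. Cebpa was detected in cell 7 only, at 4.32. Spi1, which encodes PU.1, was found in cells 8, 14 and 11 only, at 5.51, 5.15 and 4.72. Cell 6 had Spi1 and Cebpa at 0.

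Further genes of neutrophils were compared between cells 6, 8, 11 and 14, a comparison chosen after the values of these cells were seen. The specific granule, late neutrophil, receptor and NADPH oxidase lists hold 27 genes with a row besides the members. Of these, 20 passed detection in 7 cells or more, as did 51.7% of all rows. In 25 of the 27 the highest level was in cell 11 or 14, where 15.6% of all rows had theirs. Cell 6 was below both cell 11 and cell 14 in 21 of them, as in 24.5% of all rows, and cell 8 was in 18. For cell 8 the share over all rows was not computed. Of the 8 later members, cell 6 was below both in 5 and cell 8 in 6. Over the 27 genes the median level of cells 6, 8, 11 and 14 was 1.88, 3.72, 6.90 and 7.27. The 8 later members had medians of 10.59, 9.15, 11.10 and 11.72 in the same cells. Whether cell 6 differs from cells 11 and 14 more in the other genes than in the members was not tested.

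In the specific granule list, 2 of 3 further genes were detected in at least 7 cells, as were 51.7% of all rows. Hp, which encodes haptoglobin, was at 9.34 in cell 14 and 8.08 in cell 11 but at 2.42 in cell 6. Pglyrp1, which encodes a peptidoglycan recognition protein, reached 8.12 in cell 11 and 7.27 in cell 14, with 0 in cell 6. Cd177, a surface marker gene of neutrophils, had 7.19 and 5.17 in cells 14 and 11 and 1.496 in cell 6. Cell 6 was the lowest of these 3 cells for each of the 3 genes, as it also was for Camp, Ngp and Lcn2.

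All 8 further genes of the gelatinase granule and late neutrophil list passed detection in 7 cells or more. Over all rows the share was 51.7%. Wfdc21, a secreted whey acidic protein family gene, and Slpi, a leukocyte protease inhibitor gene, were detected in all 14 cells with medians of 8.71 and 5.06. In cell 6 they were at 12.01 and 10.90, beside 13.56 and 11.70 in cell 11. Mmp9, the gelatinase gene that names the granule, had 9.29 and 7.65 in cells 14 and 11 and 3.31 in cell 6. Stfa2l1, a stefin gene, reached 9.70 and 7.73 in cells 11 and 14 but stood at 0 in cell 6. Ifitm6, Mcemp1 and G0s2 were at 4.31, 1.72 and 1.13 in cell 6, beside 11.64, 6.90 and 6.19 in cell 11. Cell 6 was below both cell 11 and cell 14 in 7 of the 8 genes, as in 24.5% of all rows. Wfdc21 and Slpi were among the 7. The exception was Lrg1, at 1.88 in cell 6 and 0.53 in cell 11.

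Receptor and oxidase genes were examined in the same way. Detection in 7 or more cells held for 8 of 12 receptor genes (51.7% of all rows), and 9 were highest in cell 14 (8.09% of all rows). Csf3r, the receptor gene for the growth factor G-CSF, was at 6.40, 4.37 and 3.91 in cells 14, 11 and 6 and had a median of 1.21. Cxcr2, a chemokine receptor gene of mature neutrophils, was highest in cell 6 at 5.10. Of 4 NADPH oxidase genes with a row 2 were detected in at least 7 cells, and Ncf4, a cytosolic subunit, had 9.81, 8.52, 8.34 and 3.47 in cells 14, 8, 11 and 6. Srgn encodes serglycin, the proteoglycan that packs granule proteins, and was detected in all 14 cells. Its median was 8.05, and cells 14, 11 and 6 had 12.39, 11.85 and 11.07. Among further listed genes, Lyz2 reached 13.56 in cell 14 and passed detection in 13 cells. Anxa1 passed in all 14, with a median of 9.95 and its highest values, 11.60 and 11.55, in cells 8 and 4. The Spearman correlation of Anxa1 with the later mean was -0.08. S100a8 and S100a9 had no row.

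Proliferation genes are active in promyelocytes and myelocytes, and 6 of the 10 listed had a row. Detection in 7 or more cells held for 4, and for 51.7% of all rows. Cell 6 had the highest Pcna, a DNA polymerase clamp gene, at 9.62, and the highest Tyms, the thymidylate synthase gene, at 6.73, with 3.11 in the next cell. Top2a and Cdk1 were at 0.11 and 0.68 in cell 6 and highest in cells 7 and 11, at 5.48 and 6.47. Birc5 and Tubb5 were at 1.79 and 5.10 in cell 6 and highest in cells 7 and 1, at 2.24 and 7.57. The list mean was 4.004 in cell 6 and between 1.22 and 3.32 in the others.

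Pan-leukocyte genes, which neutrophils also express, were high in the cells with high later granule genes, and their part in these results was not tested. The 10 pan-leukocyte genes had summed levels from 8.61 in cell 4 to 92.6 in cell 14, and all 10 were detected in cells 8, 11 and 14. Cell 6 had 9 of 10 detected, Ptprc (CD45) being the one below the threshold at 0.50, and a sum of 45.99. Over the 14 cells the list mean had a Spearman correlation of 0.85 with the later mean. In the 10 cells without cells 6, 8, 11 and 14 it was 0.67.

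The 7 monocyte and macrophage genes with a row had summed levels of 53.4 in cell 14 and 11.4 to 26.4 in the others, and all 7 were detected in cell 14 alone. Of the 4 B cell genes, 3 were detected in cells 3, 7, 11 and 13, and 3 were at 0 in cells 1, 2, 5, 6, 8, 9, 10 and 14. The latter cells all belong to the larger set by zeros, and cells 3, 11 and 13 to the smaller. Cd79a, Vpreb1 and Vpreb3 were among the rows that formed the sets, so this match is partly built in. The eosinophil, basophil and mast cell list had 0 rows.

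Mesenchymal genes were present in the same cells as the granule genes. Of 12 such genes at least 10 were detected in every cell, and their mean was 8.16, 6.35, 7.44 and 4.16 in cells 6, 8, 11 and 14, where the median cell had 7.60. Cell 6 had Col1a1 at 11.58 and Col1a2 at 11.97, the type I collagen genes of osteoblasts and fibroblasts, together with Mpo at 11.25. Decorin (Dcn) was at 12.28 in cell 11 beside Retnlg at 14.58. Cell 14, with the highest later mean, had Dcn at 7.04, its lowest value. It had Prrx1 at 0.59 and Pdgfra at 0.41, both under the detection level. Prrx1 was also under that level in cells 2 and 12, and Pdgfra in cells 5 and 10. The list mean had a Spearman correlation of -0.07 with the later mean over the 14 cells and 0.54 in the 10 cells without cells 6, 8, 11 and 14.

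**Figure D5:**
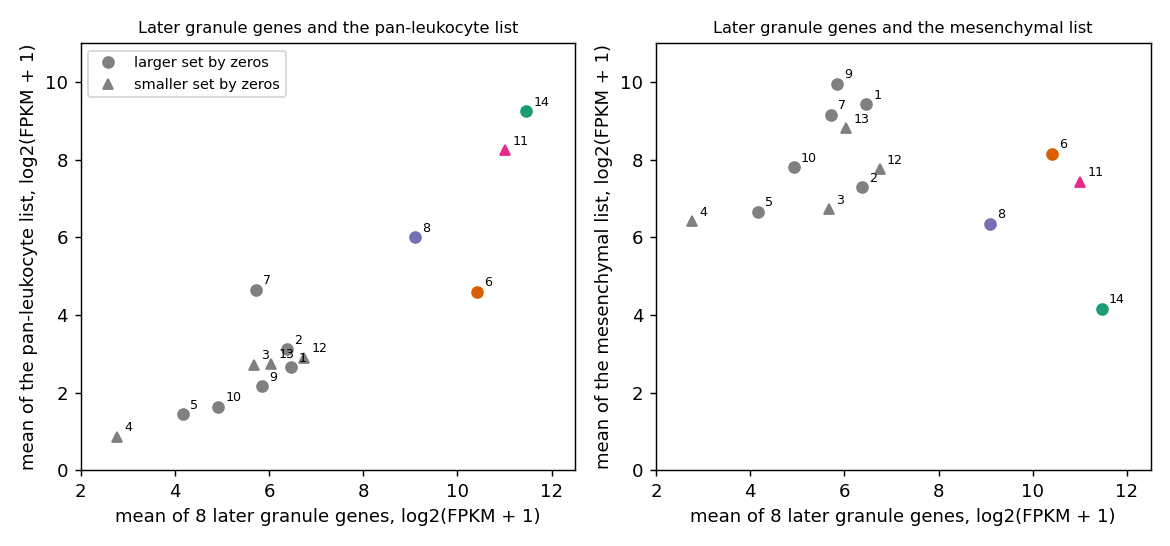
Mean of the later granule genes (x axis) against the mean of the pan-leukocyte list (left) and of the mesenchymal list (right) in each numbered cell, all as log2(FPKM + 1), with circles and triangles for the 2 sets of cells by their zeros. Cells 8, 11 and 14 are high in both measures on the left, and cell 6 has a later mean of 10.41 with a pan-leukocyte mean of 4.60.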

How the data were processed

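RNA of 14 single cells was sequenced after a SMART-Seq v4 3' and a Nextera XT library kit, per the labels' protocols. The submitters' processing notes name TopHat2, Cufflinks and the build GRCm38, with no version. The deposited values are read as log2(FPKM + 1), quantile normalized, because every column has the maximum 14.58 and the third quartile 3.98. Neither step is stated in the labels or header. The lowest row maximum was 1.61 over 9558 rows, and no source used here says how the authors selected rows. Value columns of no sample numbered 0.

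Computed here were levels, detection (1 or more), class means, within-cell differences and Spearman correlations (pandas 2.3.3, scipy 1.17.1), with no test, as there is 1 group. The ranking and motif search were tested on simulated data. The cells were also grouped by average linkage on which rows were above 0. Transcript lengths and positions came from GENCODE M21. Alternatives were other thresholds, scales, class lists and sets of cells. The gene list, marker lists and motifs were chosen with earlier results of these data known. Named genes are the 10 members, list genes (detected in at least 7 cells or high in a cell a result turns on) and the 5 rows most like each class mean. Chil4 was added after its values were seen.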

Additional observations from a re-analysis of the deposited data

How the results depend on the processing

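The later minus early difference stayed positive in its median under all 12 alternatives tried, from 5.35 (Mpo alone as the early class) to 7.89 (linear values averaged), against 5.71. As a percentile rank within the cell it was 57.3 points, on another scale. Mpo alone and Elane alone were chosen after seeing the data. With Mpo alone the difference was -0.85 in cell 6. The later mean was the higher in 9 of 9 and 5 of 5 cells of the 2 sets by zeros, as follows from 14 of 14 in all cells. The counts followed the threshold. Members detected in at least 7 cells numbered 5 at a log2 value of 5, against 8. Members present in all 14 cells were 8 when any value above 0 counted and 2 at the strictest threshold (log2 of 5), where 4 were reported. Mpo or Elane was present in 12 cells when any value above 0 counted, but in 1 cell at each stricter threshold (FPKM 5, FPKM 10, log2 of 5), where 7 were reported. The median rho between later genes was 0.41 without cells 6, 8, 11 and 14, against 0.75, and the cause was not tested. All 40 medians of single genes over other sets of cells moved by less than the SD over the cells. Of these, 6 moved by over 1.5 times as a ratio of the log2 levels, which is not a fold change in FPKM. The median of Mpo, 0.54, was 0.19 without cell 6, 0.93 in the set of 9 and 0.000845 in the set of 5, and that of Chil3 was 1.79 in the set of 5 against 3.99. Without cells 6, 8, 11 and 14 those of Mmp8 and Ly6g were 1.92 and 1.48, against 3.11 and 2.52. Of 40 detection counts of single genes under other thresholds, 13 moved by over 1.5 times. No paired analysis was possible because the labels give 1 group. The unknown depth limits what a value under 1, or at 0, can show.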
